A study of Mus musculus with 24 samples.

Results

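The t-UTP genes described here are Cirh1a, which encodes cirhin (Utp4), and its 5 partners Heatr1, Utp15, Wdr43, Wdr75 and Nol11. They were taken by name, and by older synonyms, from a table of log2 expression values on Illumina mouse bead arrays. The 6 genes matched 7 of 31483 target IDs, a target ID being a transcript target read by 1 or more probes. These were CIRH1A, HEATR1, NOL11 and WDR75, a second one for Wdr75 under a clone name, AW544865 for Utp15 and WRD43 for Wdr43. The samples were Cirh1a heterozygotes (Cirh1a+/-) and wild-type littermates at 4 stages, with 3 arrays of each genotype per stage and 24 arrays in all. At embryonic day 8.5 (E8.5) and E9.5 the whole embryo was used; at E11.5 the source was liver, as at E12.5. All were of the C57BL/6 JAX strain, with no treatment named. The targeted Cirh1a allele carries a β-Geo gene-trap insertion, which appears among the labels of both genotypes. These are told apart by the sample titles and were read by PCR of yolk sac. Heterozygotes keep 1 untrapped allele, no homozygote is analysed here, and the labels do not say whether an array held 1 embryo or several.

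Ribosome production begins in the nucleolus, where RNA polymerase I copies the ribosomal DNA and the SSU processome assembles on the new transcript to release the small-subunit rRNA. The t-UTP proteins form the subcomplex (UTP-A) that binds the 5′ end of the transcript early in this assembly, and in human cells and yeast several of them are also needed for full pre-rRNA transcription. In people, a missense change of cirhin underlies North American Indian childhood cirrhosis, a severe liver disease of childhood. The question put to the data was whether transcripts of the partners follow the loss of Cirh1a transcript.

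The Cirh1a promoter is shown because the gene lies head to head with Chtf8, a factor of chromosome cohesion. The promoters of Wdr75 and Nol11 are shown because the first Wdr75 target ID varied together with Nol11 across arrays, as described further on. The second Wdr75 target ID did not. Each line gives the strand of the gene, 250 bases before the annotated start and 50 after it, from RefSeq on GRCm38.p6. Capitals mark CACGTG (the E-box of Myc and Max), GGGCGG (the GC box of Sp1), CCAAT and TATAAA, each searched on both strands.
Cirh1a (Utp4), chr8:106893390-106893689, plus strand: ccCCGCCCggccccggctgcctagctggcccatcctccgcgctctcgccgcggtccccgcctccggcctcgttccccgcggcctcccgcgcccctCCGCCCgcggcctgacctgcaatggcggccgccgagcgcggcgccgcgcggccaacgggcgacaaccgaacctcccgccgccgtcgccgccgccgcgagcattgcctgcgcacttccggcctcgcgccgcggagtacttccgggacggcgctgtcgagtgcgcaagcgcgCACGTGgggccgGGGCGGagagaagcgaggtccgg
Wdr75, chr1:45794916-45795215, plus strand: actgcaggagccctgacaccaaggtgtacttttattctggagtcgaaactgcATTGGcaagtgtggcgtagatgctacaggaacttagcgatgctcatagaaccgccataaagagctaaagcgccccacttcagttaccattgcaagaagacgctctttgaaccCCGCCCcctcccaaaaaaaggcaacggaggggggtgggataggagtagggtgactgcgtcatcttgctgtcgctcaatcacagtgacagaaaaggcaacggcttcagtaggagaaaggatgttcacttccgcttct
Nol11, chr11:107189332-107189631, minus strand: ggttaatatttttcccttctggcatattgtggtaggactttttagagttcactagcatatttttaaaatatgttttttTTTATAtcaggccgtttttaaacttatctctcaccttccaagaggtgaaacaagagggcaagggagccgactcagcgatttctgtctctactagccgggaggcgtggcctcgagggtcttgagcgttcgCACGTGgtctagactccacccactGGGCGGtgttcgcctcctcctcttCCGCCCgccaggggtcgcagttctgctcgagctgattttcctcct

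The Cirh1a window has 79.7% G and C, and 146 of its 300 bases are shared with the window of Chtf8, which runs the other way. CACGTG was found in the windows of Cirh1a, Wdr43 and Nol11, and in 7.2% of 32851 RefSeq promoters. In Cirh1a it begins 16 bases after the start and in Wdr43 18 bases after it, whereas in Nol11 it begins 43 bases before the start. GGGCGG was found in the windows of Cirh1a, Utp15, Wdr43, Wdr75 and Nol11, against 35.7% of promoters. CCAAT was found in those of Utp15 and Wdr75 (37.4% of promoters), and TATAAA in that of Nol11 (13.6%). Heatr1 held none of these, and the longer palindromes bound by NRF1 (1.0% of promoters) and ZBTB33 (0.5%) were found in none of the 6. These matches describe letters in a window only.

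The values are the authors' log2 expression values. Arrays of E8.5 and E12.5 share 1 set of percentiles (largest gap 0.0011) with a median of 2.7, whereas E9.5 has a median of 6.63 and E11.5 one of 6.91. Levels are therefore compared between stages only for E8.5 and E12.5, and the other stages are described by percentile, the rank of a target ID among all those of the same array. In the arrays labelled liver, the fetal liver gene Afp lay at percentiles of 98.2 to 98.7 at E11.5 and 98.9 to 99.0 at E12.5. It was also high in whole embryos, at 87.3 to 96.0 at E8.5 and 80.7 to 89.9 at E9.5. Albumin, which rises later in liver, was at percentiles of 38.3 to 58.7 at E11.5. At E8.5 the Y-linked level had a Pearson r of -0.998 with genotype over the 6 arrays, so a difference there is also one between arrays with low and high Y-linked signal. Xist, transcribed in female cells, averaged 9.64 in the E8.5 heterozygotes and 2.14 in wild type. Genotype and embryo sex therefore cannot be told apart at E8.5. The Y-linked level followed genotype less closely at the other stages. Its r with genotype was 0.63 at E9.5, and -0.33 and -0.49 at E11.5 and E12.5.

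Cirh1a transcript was lower in the heterozygotes at each of the 3 stages with a value, and by nearly the same amount. It has no value at E11.5 in the table used here. Its 1 probe read 9.90, 9.85 and 9.90 in E8.5 heterozygote embryos, against 10.64, 10.89 and 10.97 in wild type. At E9.5 it read 10.73, 10.95 and 10.98 in heterozygotes, against 11.74, 11.78 and 11.74 in wild type. In E12.5 liver it read 9.26, 9.63 and 9.48 in heterozygotes, against 10.32, 10.46 and 10.35 in wild type. The highest heterozygote array lay below the lowest wild-type array at all 3 stages. Groups that do not overlap, with the heterozygotes lower, were found for 3.02% of target IDs at E8.5, 9.27% at E9.5 and 3.6% at E12.5.

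In rank, Cirh1a lay at mean percentiles of 93.1 in heterozygotes and 96.0 in wild type at E8.5, of 90.6 and 94.5 at E9.5, and of 91.6 and 94.7 at E12.5. Cirh1a thus stayed among the abundant transcripts of the array in both genotypes. Averaged over the 3 stages it fell by 0.91 on the log2 scale (SE 0.0654, 95% interval -1.05 to -0.77; limma adjusted p = 1.0e-05), and 0.0127% of the 15807 target IDs tested were called in that fit. Those called were Cirh1a and 1 sex-linked gene. By stage, limma called Cirh1a at E9.5 alone (difference -0.86, SE 0.0714, adjusted p = 0.00771), where 0.00635% were called. At E8.5 and E12.5 the differences of -0.95 (SE 0.147) and -0.92 (SE 0.122) missed the threshold (limma adjusted p = 0.802 and 0.669). The E9.5 call was lost when any 1 wild-type array was left out, at limma adjusted p values of 0.0643, 0.0718 and 0.0815 without replicates 1, 2 and 3, while the difference stayed between -0.87 and -0.85.

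The heterozygote difference in E12.5 liver minus that in the E8.5 and E9.5 embryos was -0.01 (95% interval -0.31 to 0.28, limma adjusted p = 1.00), in a fit where 0 target IDs were called and 797 had an unadjusted p under 0.05. A gap of more than about 0.31 between liver and embryo thus lies outside the interval, and smaller ones are not excluded. Adding the Y-linked level to the fit gave an average for Cirh1a of -0.79 (adjusted p = 0.00809). Where the probe lies relative to the trap is not given in the sources used here, so it is not known whether the probe also reads the trapped transcript. In whole embryos and livers, fewer cells of a type and less RNA per cell cannot be told apart.

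**Figure D1:**
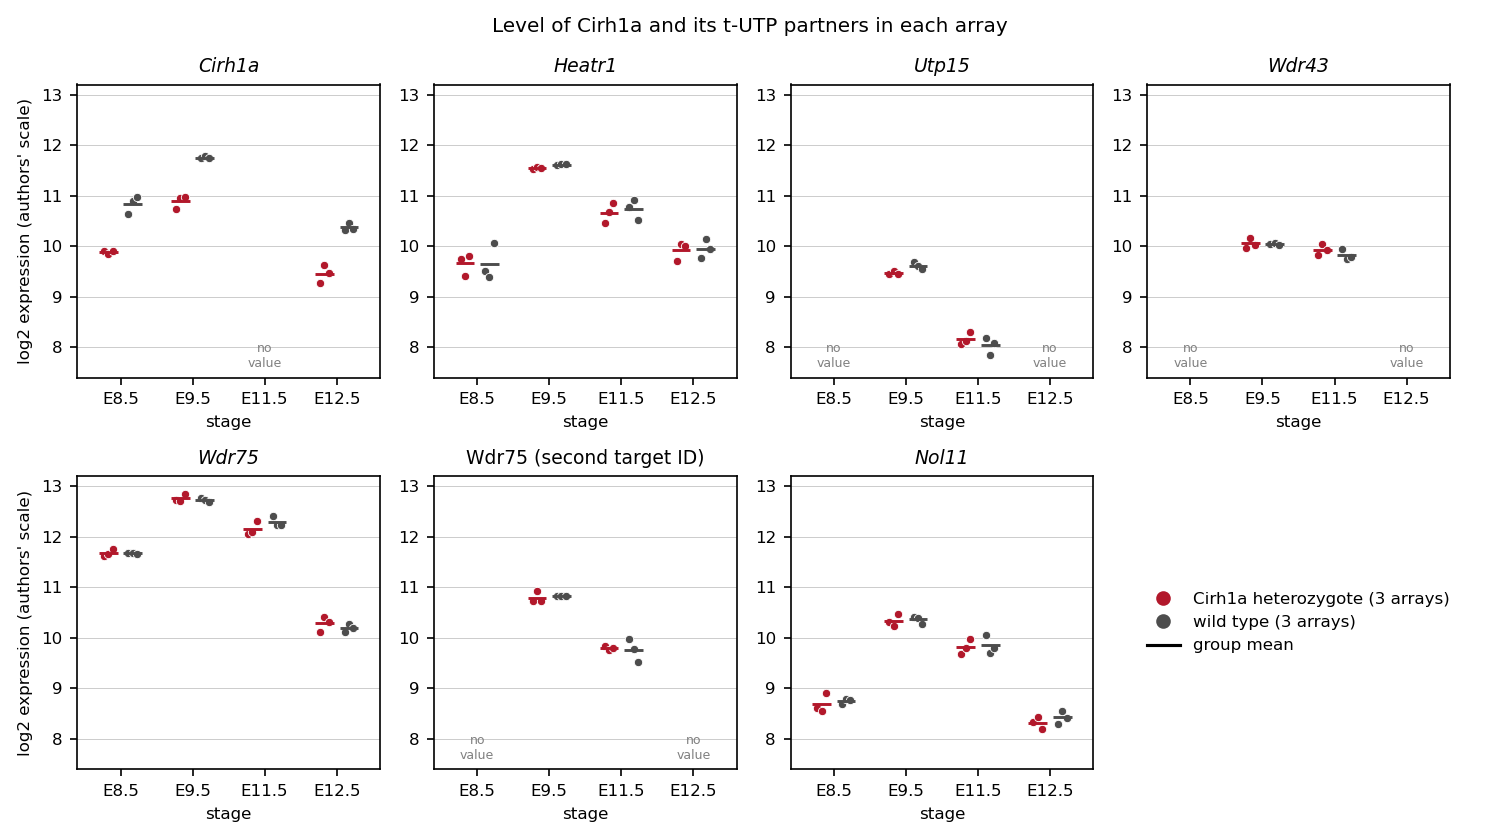
Log2 expression level of each t-UTP target ID (vertical axis) in each array by stage (horizontal axis), with heterozygotes in red to the left of wild type in grey and a bar at each group mean. Cirh1a is separated by genotype at its 3 stages, whereas the groups of Wdr43, Wdr75 and Nol11 overlap at every stage with a value; levels are comparable between E8.5 and E12.5 only.

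Of the 5 partners, 0 passed the test at any stage or in the average over their stages. Their stage differences lay between -0.15 and 0.12 on the log2 scale, and 1 of them, Utp15 at E9.5, had an unadjusted p under 0.05, as had 1742 of the 15741 target IDs tested at that stage. In the same fits limma called 0.0238% of target IDs at E8.5, 0.00635% at E9.5 and 0 at E11.5 and E12.5, where 414 and 486 had an unadjusted p under 0.05. The 3 called at E8.5 were all sex-linked genes, with 1 higher and 2 lower in heterozygotes. Liver minus embryo, the differences of Heatr1, Wdr75 and Nol11 over 4 stages were -0.02, -0.05 and -0.02, with 95% intervals that include 0 and 0.0061% of target IDs called. The partners are described by role, from the scaffold protein to the WD-repeat proteins and Nol11.

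Heatr1 (Utp10 in yeast) is a long protein of HEAT repeats and was read by 4 probes. At E9.5 it was at 11.53, 11.58 and 11.56 in heterozygotes, against 11.60, 11.62 and 11.62 in wild type. These groups did not overlap, but the difference was only -0.06 (SE 0.0505, limma adjusted p = 0.707), and 17.6% of target IDs had groups that did not overlap at this stage. At E8.5 the values were 9.75, 9.41 and 9.81 in heterozygotes and 9.51, 9.39 and 10.05 in wild type, which overlap. In liver Heatr1 was at 10.47, 10.68 and 10.85 in E11.5 heterozygotes and 10.78, 10.91 and 10.52 in wild type. At E12.5 it was at 9.71, 10.05 and 10.01 in heterozygotes and 9.77, 10.14 and 9.94 in wild type. The liver groups also overlapped, and the average over 4 stages was -0.04 (SE 0.0806, 95% interval -0.21 to 0.13, exact permutation p = 0.615). No target ID of the 16402 tested in that average was called by limma, and 879 had an unadjusted p under 0.05.

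Utp15, a WD-repeat protein of the same subcomplex, had the lowest value of the partners relative to wild type, at E9.5. It was at 9.45, 9.52 and 9.44 in heterozygotes, against 9.69, 9.61 and 9.54 in wild type. The heterozygote arrays all lay below the wild-type arrays, by 0.15 on average (difference -0.15, SE 0.0588), with an unadjusted limma p of 0.0334 and an adjusted p of 0.396. At this stage 9.27% of target IDs had such groups with the heterozygotes lower. In E11.5 liver it was at 8.06, 8.12 and 8.30 in heterozygotes and 8.19, 7.84 and 8.08 in wild type. There the groups overlapped and the difference was 0.12 (SE 0.107). The E11.5 difference minus the E9.5 one was 0.27 (unadjusted limma p = 0.05, adjusted p = 0.993), and the average of both was -0.01 (95% interval -0.15 to 0.12, exact permutation p = 0.89), in a fit that called 0.00561% of 17833 target IDs.

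Array means of liver and nervous tissue markers lay apart by genotype at E9.5. Of single target IDs, 17.6% had groups that did not overlap at this stage, and 1742 of 15741 had an unadjusted limma p under 0.05. No such share was computed for means over a list. All 4 tested of 6 listed liver markers had positive differences, with array means over the list of 10.12 to 11.20 in heterozygotes and 9.75 to 9.88 in wild type on the log2 scale. Of 4 tested of 5 listed neural markers, 3 had negative differences, with array means of 8.5 to 8.61 in heterozygotes and 8.86 to 8.90 in wild type. The exception, Sox2, averaged 9.351 in heterozygotes and 9.315 in wild type. Pax6, which was not tested at this stage, averaged 6.408 in heterozygotes and 6.371 in wild type. None passed the adjusted test, the smallest adjusted p being 0.146 for the liver list and 0.0571 for the neural list. Among the liver markers, albumin lay at the bottom of the array at this stage (percentiles of 2.9 to 10.6) and was not among those tested. Its mean was 5.884 in heterozygotes and 5.945 in wild type. Serpina1a, also untested, was higher in heterozygotes, as were the 4 tested markers, at 6.499 against 6.422 in wild type. Other liver markers were already high in E8.5 whole embryos, at percentiles of 99.2 to 99.8 for Ttr, 97.6 to 99.6 for Apoa1 and 84.9 to 92.9 for Hnf4a. Their shift at E9.5 is therefore not read as an amount of liver, and its tissue of origin was not tested. The part of the liver and neural markers in the Heatr1 and Utp15 values at E9.5 was not tested.

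Wdr43 (Utp5 in yeast), read by 2 probes, was at 9.97, 10.17 and 10.02 in E9.5 heterozygotes and 10.03, 10.06 and 10.03 in wild type. In E11.5 liver it was at 9.82, 10.04 and 9.93 in heterozygotes and 9.94, 9.74 and 9.78 in wild type. Groups overlapped at both stages, and the average difference was 0.06 (SE 0.0553, 95% interval -0.06 to 0.18, exact permutation p = 0.295). Utp15 and Wdr43 have no value at E8.5 and E12.5 in the table used here.

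Wdr75 (Utp17 in yeast) lay at percentiles of 97.1 to 97.9 in every whole-embryo array, and of 93.9 to 98.0 in the livers. It was at 11.63, 11.65 and 11.76 in E8.5 heterozygotes and 11.68, 11.67 and 11.65 in wild type. At E9.5 it was at 12.73, 12.70 and 12.85 in heterozygotes and 12.76, 12.72 and 12.68 in wild type. Neither stage separated the genotypes. In E11.5 liver it was at 12.05, 12.09 and 12.30 in heterozygotes and 12.41, 12.23 and 12.22 in wild type, a difference of -0.14 (SE 0.0952) with overlap. At E12.5 it was at 10.11, 10.41 and 10.32 in heterozygotes and 10.12, 10.28 and 10.19 in wild type. The 4-stage average was -0.0004 with a 95% interval of -0.10 to 0.10 (exact permutation p = 0.992), the narrowest interval among the partners.

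The second target ID for Wdr75, with 1 probe, was at 10.73, 10.91 and 10.73 in E9.5 heterozygotes and 10.82, 10.82 and 10.83 in wild type. In E11.5 liver it was at 9.83, 9.75 and 9.81 in heterozygotes and 9.98, 9.79 and 9.53 in wild type. Its average difference was 0.00 (95% interval -0.14 to 0.15), so both target IDs gave averages close to 0.

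Nol11, a vertebrate partner of cirhin in the SSU processome, was at 8.61, 8.55 and 8.91 in E8.5 heterozygotes and 8.70, 8.79 and 8.77 in wild type. At E9.5 it was at 10.31, 10.24 and 10.47 in heterozygotes and 10.41, 10.40 and 10.28 in wild type. Heterozygote replicate 3 was the highest array of all 6 at both stages. In E11.5 liver it was at 9.68, 9.80 and 9.98 in heterozygotes and 10.06, 9.70 and 9.79 in wild type. In E12.5 liver it was at 8.34, 8.43 and 8.19 in heterozygotes and 8.30, 8.56 and 8.41 in wild type. All 4 differences were negative (-0.06, -0.02, -0.03 and -0.10 from E8.5 to E12.5) with overlap each time. The average was -0.05 (SE 0.0599, 95% interval -0.18 to 0.07, exact permutation p = 0.304).

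**Figure D2:**
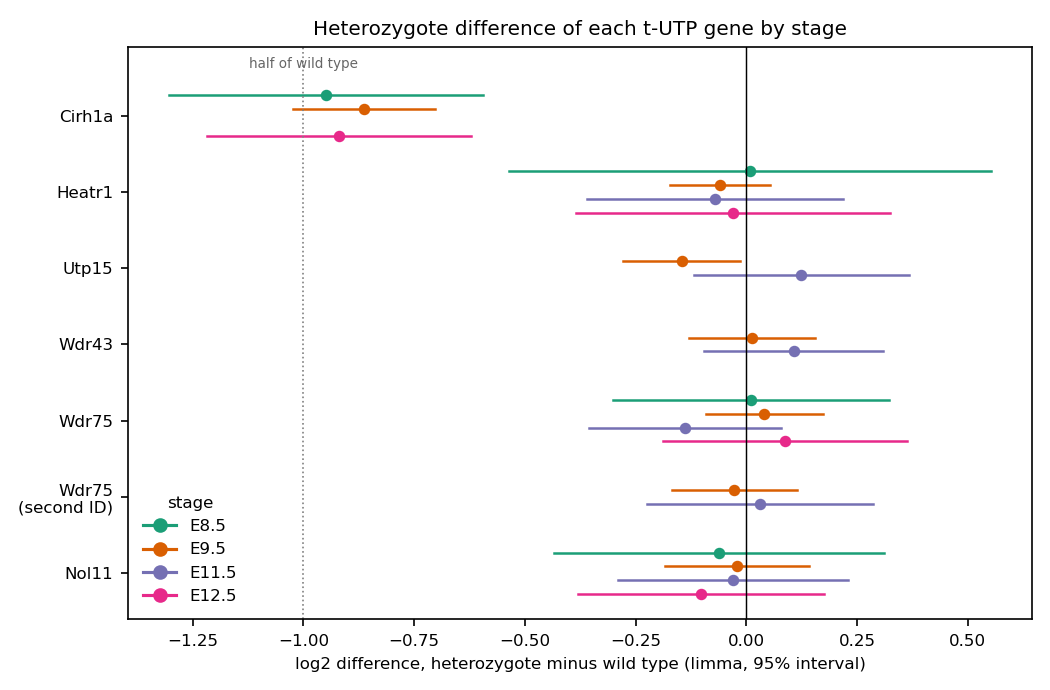
Heterozygote minus wild-type difference in log2 expression (horizontal axis) of each t-UTP target ID (rows), by stage, as the limma estimate with its 95% interval; the dotted line at -1 marks a 2-fold lower level. The 3 intervals of Cirh1a lie between -1.30 and -0.59, and those of the partners include 0 except for Utp15 at E9.5, whose interval runs from -0.28 to -0.01.

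The partners' differences were then set directly against that of Cirh1a, by subtracting Cirh1a from each target ID in every array. Over the 3 stages with a Cirh1a value, the heterozygote difference of Wdr75 was higher than that of Cirh1a by 0.96 (95% interval 0.86 to 1.06, adjusted p = 8.00e-09 from limma's linear model). For Heatr1 the gap was 0.88 (0.72 to 1.05, adjusted p = 3.48e-07), and for Nol11 it was 0.85 (0.71 to 0.99, adjusted p = 1.46e-07). Each had an exact permutation p of 0.00025, the smallest that 8000 arrangements allow. Almost every target ID differs from Cirh1a in this way: 99.2% of 15806 were called in the fit and the median gap of all tested was 0.91. The 3 partners thus sat close to the bulk of the array, not close to Cirh1a.

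At E9.5, the stage where all 5 partners could be set against Cirh1a, the gaps were 0.80 for Heatr1, 0.88 for Wdr43, 0.90 for Wdr75, 0.84 for its second target ID and 0.84 for Nol11. Utp15 had the smallest gap, 0.72 (95% interval 0.48 to 0.96, adjusted p = 0.00210). All adjusted p values lay between 0.00121 and 0.00210, 99.6% of target IDs were called, and the exact permutation p was 0.1 for each, the smallest that 3 arrays against 3 allow. In these data the partners' transcripts did not follow that of Cirh1a in size at the stages measured. A change of a partner within its own interval, such as a fall of Nol11 by up to 0.18 on average, is not excluded by these values. That interval is not a limit of detection, since larger differences can also miss the adjusted threshold with this number of arrays.

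**Figure D3:**
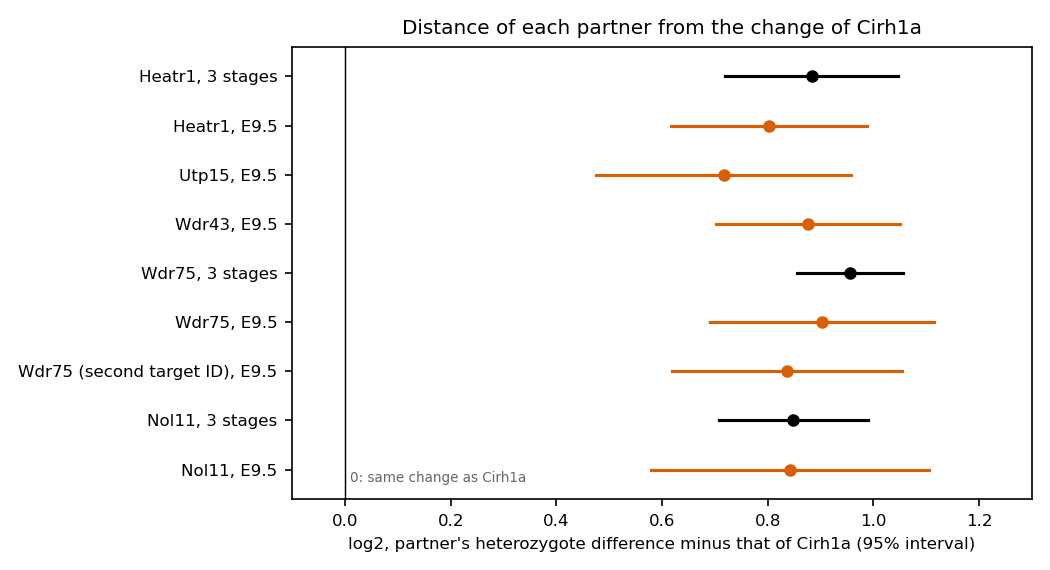
Heterozygote difference of each partner minus that of Cirh1a on the log2 scale (horizontal axis), with 95% intervals, over 3 stages in black and at E9.5 in orange. A value of 0 would be the same change as Cirh1a; the estimates run from 0.72 for Utp15 at E9.5 to 0.96 for Wdr75 over 3 stages.

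Levels of 4 members can be set side by side between E12.5 liver and E8.5 embryo, where stage and tissue cannot be told apart. The shared percentiles show that the arrays have 1 distribution of values, not that each target ID was read alike at both stages. Wdr75 averaged 10.28 ± 0.15 and 10.20 ± 0.08 in heterozygote and wild-type E12.5 liver (SD, n = 3 each), against 11.68 ± 0.07 and 11.67 ± 0.01 in E8.5 embryo. It fell by 1.43 over both genotypes (SE 0.0813, limma adjusted p = 1.91e-08), and its mean percentile was 94.4 in heterozygote and 94.2 in wild-type liver, against 97.8 and 97.8 in embryo. Cirh1a fell by 0.44 (SE 0.0934, adjusted p = 0.00120) and Nol11 by 0.35 (SE 0.0940, adjusted p = 0.00588), whereas Heatr1 had 0.28 (SE 0.139, adjusted p = 0.0872). The background is large: 73.6% of 14626 target IDs were called in this contrast, and the median difference of all tested was -0.25. For scale, the 10 tested genes of RNA polymerase I and its factors had a median of -1.11 in this contrast. The 17 tested genes of the rest of the SSU processome, listed further on, had a median of -0.57, with 7 positive and 10 negative (range -1.64 to 8.78).

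The E8.5 arrays also read some ribosome genes below the array median, which were high at every other stage; the 2 named here were chosen after their values were seen. Nop58 of the U3 snoRNP was at 10.70 ± 0.11 in E12.5 liver, against 1.92 ± 0.31 in E8.5 embryo (SD, n = 6 each). The processome protein Nol6 was at 8.17 ± 0.20 in E12.5 liver, against 2.10 ± 0.24 in E8.5 embryo. The 4 members with a value at E8.5 had no such reading, with all of their percentiles there at 87.9 or above. Whether smaller shifts of reading between the E8.5 and E12.5 arrays enter their differences was not tested.

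Across arrays, Wdr75 and Nol11 varied together once the mean of each stage and genotype was removed. Their Pearson r was 0.75 over 24 arrays (Spearman's rho 0.74), and 0.84 without the 2 arrays farthest from the median of Wdr75. It was 0.95 over the 12 arrays of E9.5 and E11.5 and 0.54 over the 12 of E8.5 and E12.5. This pair was singled out after the values were seen; among 8928 target IDs, Nol11 ranked 38 in likeness to Wdr75. Arrays share their own depth of signal and tissue mix, so the value is given as a description. The second Wdr75 target ID did not share the pattern, with r of 0.24 with Nol11 and 0.31 with the first target ID over the 12 arrays of E9.5 and E11.5. Spearman's rho was -0.14 with Nol11 and 0.09 with the first target ID. Without the 2 arrays farthest from the Wdr75 median, of the second and the first target ID in turn, r was -0.47 and -0.09. The pattern thus rests on the first Wdr75 target ID.

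With the stage means removed, the 5 target IDs most like Cirh1a over its 18 arrays were Nedd9 (r 0.74), Qrfprl (0.72), 1110070O15RIK (0.70), Erdr1 (0.69) and Calml4 (0.68). The 3 partners with values on these arrays ranked far lower among the 9263 target IDs compared; Utp15 and Wdr43 could not be compared. Nol11 had an r of 0.36 (rank 853), Heatr1 0.21 (rank 2293) and Wdr75 -0.18 (rank 6642). These r carry the genotype difference of Cirh1a. With the genotype means removed as well, they were 0.60 for Heatr1 (rank 748 of 9263), 0.60 for Wdr75 (rank 774) and 0.37 for Nol11 (rank 2287).

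The rest of the SSU processome did not follow Cirh1a at E9.5 either. Its lists were UTP-B (which binds after UTP-A), the proteins of the U3 snoRNP (which base-pairs with the pre-rRNA), the Mpp10 subcomplex and other factors, with 43 genes listed, all of them with a target ID. Of these, 35 were tested at E9.5, and 17 were positive, 18 negative and 0 called, with 1742 of all target IDs at an unadjusted limma p under 0.05. Their median difference was -0.01 with a range of -0.11 to 0.11, and the median of all tested was 0.00. Averaged over E9.5 and E11.5, 21 of 35 were positive and 14 negative, with 0 called, a median of 0.02 and a range of -0.10 to 0.13. Over 4 stages, 18 could be tested, with 12 positive, 6 negative and 0 called, a median of 0.04 and a range of -0.10 to 0.19.

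All 5 U3 snoRNP proteins were positive in the average over E9.5 and E11.5, with a median of 0.07. Snu13, which binds the kink-turn of U3, had 0.13 (adjusted p = 0.707), and Rrp9, the U3-specific protein, had 0.13 (adjusted p = 0.681). In UTP-B, Wdr3 had -0.09 and Pwp2 -0.02. In the Mpp10 subcomplex, Imp4 had 0.06 and Mphosph10 itself 0.01. The averages over 4 stages were -0.02 for Wdr3, 0.18 (SE 0.121) for Pwp2 and 0.19 (SE 0.127) for Mphosph10, with limma adjusted p values of 0.993, 0.978 and 0.978. Mphosph10 has several target IDs, and its averages need not come from the same one. The helicases Dhx37, whose yeast form releases U3, and Ddx49 had -0.10 and 0.09. None of these passed the test, so they are values and not changes.

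RNA polymerase I and its factors, which make the transcript that t-UTP proteins bind, had 15 of 16 listed genes tested at E9.5. Of these, 10 were positive, 5 negative and 0 called, with a median of 0.03. In the average of E9.5 and E11.5, the subunit Polr1c had 0.10 (adjusted p = 0.774) and the largest subunit Polr1a -0.11 (adjusted p = 0.777). Hivep1, a zinc finger protein reported to bind human cirhin, had 0.06 (SE 0.0560, adjusted p = 0.889).

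**Figure D4:**
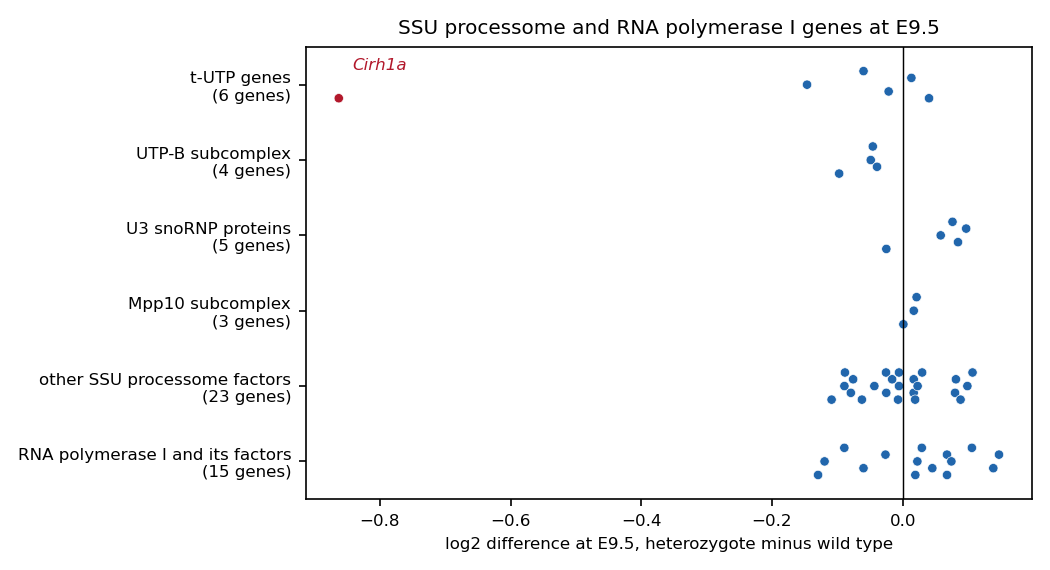
Heterozygote minus wild-type difference in log2 expression at E9.5 (horizontal axis) for the t-UTP genes, the other SSU processome lists and RNA polymerase I with its factors (rows; 1 point per tested gene, spread vertically for legibility). Cirh1a stands at -0.86, and the other points lie between -0.15 and 0.15.

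The genes beside Cirh1a on chromosome 8 show whether the difference was shared along the chromosome around the trap. Of the 10 RefSeq protein-coding genes on each side, 19 of 20 had a target ID and 17 were tested at E9.5. Of the 17, 8 were positive, 9 negative and 0 called, with a median of 0.00 and a range of -0.19 to 0.17. Negative differences were more frequent at E8.5 (10 of 12, median -0.17) and E11.5 (14 of 17, median -0.03), but not at E12.5 (6 of 13, median 0.01). In the average over 4 stages, 12 of 14 were negative with a median of -0.07, against 0.00 for all tested. None was called in any of these fits, and at most 2 had an unadjusted p under 0.05 in each. Chtf8, whose start faces that of Cirh1a, was at 9.04, 8.89 and 9.04 in E8.5 heterozygotes, against 9.18, 9.14 and 9.26 in wild type. Those groups did not overlap, as for 3.02% of target IDs with the heterozygotes lower, but they overlapped at the other 3 stages. Its average over 4 stages was -0.07 (SE 0.0549, 95% interval -0.19 to 0.04, limma adjusted p = 0.990).

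Derpc, the annotated gene next to Cirh1a on that side, matched no target ID. On the other side, Sntb2, a syntrophin of the membrane skeleton, had an average over 4 stages of -0.10 (SE 0.107, adjusted p = 0.991). Vps4a, the ATPase that takes ESCRT filaments apart, had -0.06 (SE 0.0385, adjusted p = 0.978). Neither passed the test. Pdf, the mitochondrial peptide deformylase 3 genes away, was singled out after the values were seen. It was at 7.77, 7.87 and 7.77 in E8.5 heterozygotes, against 8.33, 7.98 and 7.94 in wild type. At E12.5 it was at 7.41, 7.16 and 6.98 in heterozygotes, against 7.57, 7.41 and 7.82 in wild type. The heterozygotes lay below wild type without overlap at E8.5 and, by a narrow margin, at E9.5 and E12.5, and overlapped at E11.5. Such groups, with the heterozygotes lower, were found for 3.02% of target IDs at E8.5, 9.27% at E9.5 and 3.6% at E12.5. Its 4-stage average was -0.25 (SE 0.0649), with a limma adjusted p of 0.548.

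**Figure D5:**
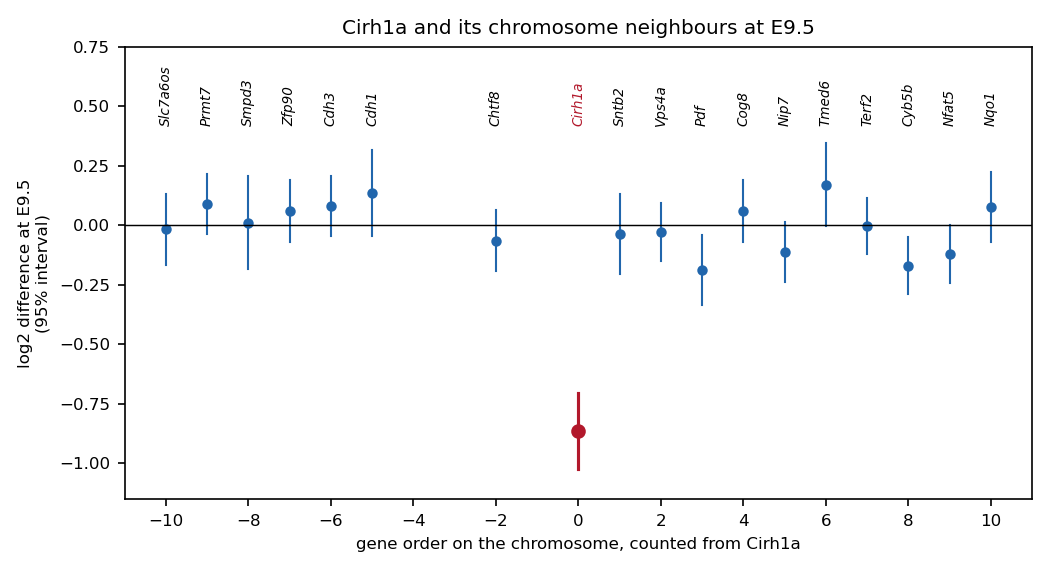
Heterozygote minus wild-type difference in log2 expression at E9.5 with 95% interval (vertical axis) for Cirh1a and its tested neighbours, in gene order counted from Cirh1a (horizontal axis); genes without a tested target ID leave gaps. Cirh1a stands at -0.86, and the 17 neighbours lie between -0.19 and 0.17.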

How the data were processed

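Total RNA of whole embryos and livers was extracted and biotinylated cRNA hybridised to Illumina bead arrays, per the labels' protocols. The deposited values are log2 expression per target ID, normalized by the authors; the background correction, normalization and software are not given in the sources used here. A further 4 deposited tables hold 48 columns of signal intensity and detection values under headings that match no sample; they were used only to count probes. The members, gene lists and tests were chosen with earlier results of these data known.

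Target IDs were named through RefSeq symbols (13425), synonyms (8110) or left as given (9948). Those above the stage median in level were tested with limma 3.58.1 in R 4.3.3 (lmFit, eBayes; Benjamini-Hochberg over all tested, threshold 0.05), per stage and averaged over stages with 1 mean per stage and genotype. Averages used E8.5, E9.5 and E12.5 for Cirh1a, E9.5 and E11.5 for Utp15, Wdr43 and the second Wdr75 target ID, and all 4 stages for the other members and the chromosome neighbours; the gene lists were averaged over E9.5 and E11.5, where most of their genes have values, unless 4 stages are named. Since every row of the comparison with Cirh1a holds the noise of Cirh1a, that fit used ordinary standard errors. Exact two-sided permutations moved genotype within stages. The E9.5 fit and both averages without all 4 stages were tested on simulated data. The number of arrays limits the precision, which also differed between stages: the median SE per target ID was 0.0647 (E9.5), 0.0909 (E11.5), 0.157 (E12.5) and 0.223 (E8.5). P-values measure the spread between these samples. All 6 members were named, with the 2 genes of smallest p per list, the 2 nearest neighbours on each side, Hivep1 and the 5 target IDs most like Cirh1a. For listed genes with several target IDs, the tested one of highest mean level in each comparison was used.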

Additional observations from a re-analysis of the deposited data

How the results depend on the processing

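The value of Cirh1a kept its direction in every stage fit and average under every alternative run, and its average over 3 stages passed the threshold each time (-0.94 to -0.88 without 1 array at a time). The comparison of each partner with Cirh1a also kept its direction and its call throughout. The single-stage calls of Cirh1a depended on the fit. At E8.5 (-0.95) it passed with a trend and robust prior (adjusted p = 0.00843) or in the joint fit of all arrays (0.00254), and at E12.5 (-0.92) likewise (0.0346 and 0.0122), where the spread is shared over genes of like level or over stages. Leaving out 1 array gave -1.04 to -0.88 at E8.5, -0.91 to -0.78 at E9.5 (adjusted p = 0.00754 to 0.0815) and -1.01 to -0.82 at E12.5. It moved the difference in liver minus embryo to between -0.0997 and 0.0833.

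Same-numbered arrays had residual correlations of 0.10 to 0.18 at E8.5, where each was closest to its own number, and of -0.39 to 0.10 at the other stages. At E12.5 replicates 1 and 2 were closest to their own number, whereas none was at E9.5 and E11.5. The replicate numbers thus gave no sign of pairing at E9.5 and E11.5. Whether they pair the samples at any stage is not known, since so few arrays cannot decide it. With the replicate block, Cirh1a at E9.5 had an adjusted p of 0.0238 and its average one of 0.00323, and the counts of calls were 2 at E9.5 (1 without), 1 over 3 stages (2), 0 over E9.5 and E11.5 (1) and 0 for liver minus embryo (1).

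Other counts of calls that differed were 57 at E8.5 and 1 at E12.5 in the joint fit, and 18 at E9.5 and 1 at E12.5 with a trend and robust prior. With the Y-linked covariate they were 6 at E9.5, 4 over 3 stages and 3 over E9.5 and E11.5. They were 1 with array weights (3 stages), 1 without the E8.5 arrays (4 stages), and 25085 and 31406 with no filter on level for the comparison with Cirh1a over 3 stages and at E9.5. Without 1 array they ranged from 0 to 54 at E9.5, from 0 to 51 over 4 stages, from 1 to 28 over 3 and from 0 to 13 over E9.5 and E11.5. For liver minus embryo they ranged from 0 to 68 over 4 stages, from 0 to 10 over 3 and from 0 to 1 over E9.5 and E11.5. The cause was not tested.

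Partner values near 0 changed sign. With the Y-linked covariate, Nol11 at E11.5 had 0.000352, Heatr1 at E12.5 0.0937, Heatr1 and Wdr75 over 4 stages 0.00660 and 0.0589, and the second Wdr75 target ID -0.00168. Centring arrays gave Wdr75 0.000261. Without 1 array at a time, the ranges that crossed 0 were, at E8.5, -0.123 to 0.209 for Heatr1, -0.0304 to 0.0365 for Wdr75 and -0.172 to 0.00898 for Nol11. At E9.5 they were -0.0455 to 0.0548 for Wdr43, -0.00345 to 0.0701 for Wdr75, -0.0875 to 0.00355 for its second target ID and -0.0875 to 0.0297 for Nol11. In liver they were -0.180 to 0.0289 for Heatr1, -0.0888 to 0.139 for the second Wdr75 target ID and -0.111 to 0.0725 for Nol11 at E11.5, and -0.119 to 0.0755 for Heatr1 at E12.5. In the averages they were -0.0711 to 0.0120 for Heatr1, -0.0198 to 0.0206 for Wdr75, -0.0591 to 0.0266 for Utp15 and -0.0580 to 0.0560 for the second Wdr75 target ID. For liver minus embryo they were -0.125 to 0.0407 for Heatr1, -0.0648 to 0.0309 for Nol11 and -0.0617 to 0.166 for the second Wdr75 target ID. Heatr1 in E12.5 liver minus E8.5 embryo passed with a trend and robust prior (adjusted p = 0.0390) and without E8.5 wild type replicate 3 (0.0153). The Y-linked covariate could not be separated from genotype at E8.5, and unnormalized signal was not run because its columns match no sample.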
